A study of Mus musculus with 3 samples.

Results

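Proline and hydroxyproline are handled by a small set of enzymes, of which 9 were followed here in the intestine of mouse pups. The genes were chosen by their role and were taken as rows of the count table by symbol: Pycr1 for proline synthesis, Prodh and Aldh4a1 for proline oxidation, P4ha1, P4ha2 and P4ha3 for the hydroxylation of proline in collagen, and Prodh2, Hoga1 and L3hypdh for the breakdown of hydroxyproline. All 9 were among the 21983 genes of the table. The study compared 3 groups of wild-type pups with 1 RNA-seq library of the intestine each. The PCI34051+NEC group went through a model of necrotizing enterocolitis (NEC), a bowel disease of the newborn, and was fed PCI34051, an inhibitor selective for the deacetylase HDAC8, at 10 mg/kg once a day for 5 days. The NEC group went through the same model with PBS in place of the inhibitor. The model was gavage of 40 µl of 33% formula every 4 h for 96 h, with 100 s of 99.9% nitrogen and then 10 min at 4 °C every 12 h. The control group was left with the dam, was spared hypoxia and cold, and also received PBS. No source used here gives strain, age in days, gut segment, or whether a library holds 1 pup or a pool. The column read as PCI34051+NEC spells the compound differently from its sample's label, and every PCI34051+NEC value rests on that assignment.

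The question, as far as the study's title gives it, was how arginine and proline metabolism differs in NEC and with inhibition of HDAC8. As each group has 1 library, differences could not be set against replicate spread and carry no p-value, and each value describes 3 libraries rather than 3 conditions. The totals were 16497580 counts for PCI34051+NEC, 10650638 for NEC and 15076413 for control. Levels are TMM-normalised CPM, read counts scaled to a common library size, ratios are plain ratios of CPM, and all intervals are 95% intervals that cover counting error only. Where separate intervals are said to overlap, this does not show that the values are equal. A gene was called higher or lower at a 2-fold difference of CPM + 1, which understates the difference of low genes, and was measured in a comparison at 1 CPM or more in 1 of its libraries. All 12 epithelial markers of the labelled tissue were counted in every library, such as Vil1 at 983, 492 and 1015 CPM in PCI34051+NEC, NEC and control. The NEC library stood apart from the others: mitochondrially encoded genes took 3.73% of counts with PCI34051+NEC, 32.4% in NEC and 4.88% in control. The 12 fibroblast markers, among them the collagens Col1a1, Col1a2 and Col3a1, summed to 897, 3090 and 937 CPM in the same order. In a bulk library, fewer cells of a type and less RNA per cell cannot be told apart.

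Proline is made from glutamate or ornithine through pyrroline-5-carboxylate, and is oxidised back to glutamate through the same intermediate in mitochondria. The suckling intestine is known as a site where proline, ornithine and citrulline are interconverted. Hydroxyproline is not used to build proteins: it is formed when prolyl hydroxylases modify proline in collagen chains after it is built in, which stabilises the collagen triple helix, and it is broken down to glyoxylate and pyruvate after collagen turnover or from the diet.

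The promoters of 5 members are shown because those genes carry the differences described below or, for Pycr1, a known stress-response motif. Each stretch is from RefSeq on GRCm38.p6, reads 5′ to 3′ toward the gene, and holds the bases of a 250-base upstream window that lie outside exons of protein-coding transcripts. Capitals mark matches on either strand to ACGTG or GCGTG, the core of the hypoxia response element, or to TGATGNAA, the core of the C/EBP-ATF response element bound by ATF4. P4ha1 (chr10:59323046-59323295, plus strand) and P4ha2 (chr11:54100674-54100923, plus strand) are the alpha subunits that the collagen results turn on. The P4ha2 stretch lies inside the gene as GENCODE places it, which begins at 54100095.
P4ha1: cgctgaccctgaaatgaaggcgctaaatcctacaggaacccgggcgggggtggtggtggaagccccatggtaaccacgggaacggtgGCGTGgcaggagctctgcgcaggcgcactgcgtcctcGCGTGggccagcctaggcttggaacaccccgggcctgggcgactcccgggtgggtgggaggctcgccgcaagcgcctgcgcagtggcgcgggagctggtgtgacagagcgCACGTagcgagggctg
P4ha2: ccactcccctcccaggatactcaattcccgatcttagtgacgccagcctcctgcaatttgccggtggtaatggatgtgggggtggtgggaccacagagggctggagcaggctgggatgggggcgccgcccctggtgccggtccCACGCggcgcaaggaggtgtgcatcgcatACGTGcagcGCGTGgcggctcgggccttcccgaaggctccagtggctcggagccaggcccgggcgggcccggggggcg
Hoga1 (chr19:42045620-42045791, plus strand) was the most abundant member, and a non-coding transcript of the gene starts upstream of this stretch.
Hoga1: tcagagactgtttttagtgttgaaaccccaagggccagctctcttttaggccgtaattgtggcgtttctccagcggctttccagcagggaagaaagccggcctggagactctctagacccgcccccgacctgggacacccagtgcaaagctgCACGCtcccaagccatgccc
L3hypdh (chr12:72085440-72085563, minus strand) lies head to head with Jkamp, and the stretch lies between the ends of both genes as GENCODE places them.
L3hypdh: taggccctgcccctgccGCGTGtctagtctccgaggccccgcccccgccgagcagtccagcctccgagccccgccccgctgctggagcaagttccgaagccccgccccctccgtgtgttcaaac
Pycr1 (chr11:120643770-120643998, minus strand) is the only member with a match to the ATF4 motif.
Pycr1: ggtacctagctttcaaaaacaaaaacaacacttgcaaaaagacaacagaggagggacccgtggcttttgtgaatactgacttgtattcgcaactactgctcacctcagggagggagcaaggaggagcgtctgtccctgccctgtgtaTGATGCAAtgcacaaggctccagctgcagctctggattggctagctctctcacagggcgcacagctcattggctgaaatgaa
P4ha1 and P4ha2 each held 3 matches to the hypoxia core, and no other member held ACGTG. Of 32851 mouse promoter windows of the same length, 38.6% held ACGTG or GCGTG and 16.6% held ACGTG at least once. The share with 3 matches was not counted. Hoga1 held 1 match to GCGTG in 172 bases and L3hypdh 1 in 124 bases. Of promoter stretches as long as these, 26.9% and 19.7% held ACGTG or GCGTG. Aldh4a1, whose stretch is not shown although the gene was called lower in PCI34051+NEC against NEC, held 2 matches to GCGTG in 222 bases. Of promoter stretches of that length, 25.3% held GCGTG and 34.9% held ACGTG or GCGTG. The ATF4 motif stood once in the 229 bases of Pycr1, and 3.20% of promoter stretches of that length held it. None of the 9 stretches held TGTTCT, a glucocorticoid receptor half-site, or TATAAA. A match is a string of letters and was not tested as a binding site.

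The 9 members did not move as a group. In NEC against control, 6 of 9 were measured, of which P4ha2 was at least 2-fold higher and L3hypdh at least 2-fold lower, while of all 14627 measured genes 47.1% were called, 24.2% higher and 22.9% lower. The median log2 fold of those 6 was 0.28, against -0.03 over all measured genes. In PCI34051+NEC against NEC, 6 were measured, of which Hoga1 and L3hypdh were higher and P4ha2 and Aldh4a1 lower, and the median was -0.30 against 0.01 over all genes. There 50.6% of 14410 genes were called, 25.0% higher and 25.6% lower. In PCI34051+NEC against control, Hoga1 was the 1 called among 7 measured members, where 13.1% of 13652 genes were called, 6.55% higher and 6.55% lower, with a median of -0.20 against -0.00 over all genes. The comparisons share libraries, so a low NEC value enters both of the first 2 with opposite signs. The counts of members called are near the shares of all genes called and set the members apart in none of the comparisons.

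**Figure D1:**
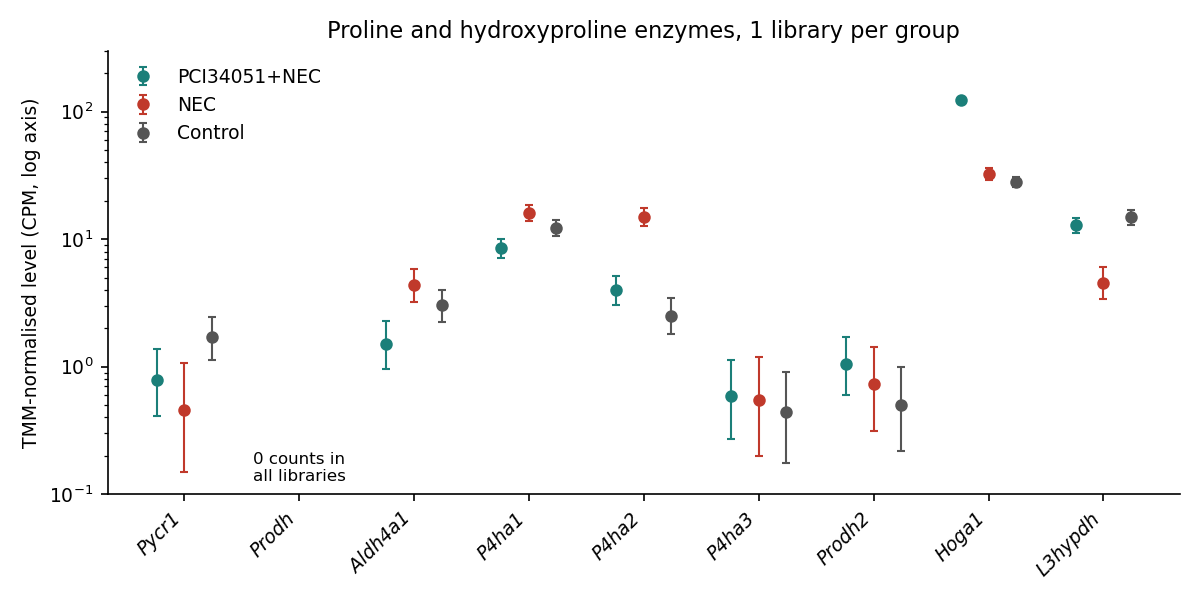
TMM-normalised level (CPM, log axis) of the 9 members in the PCI34051+NEC, NEC and control libraries, with 1 point per library and 95% Poisson counting intervals as bars. Hoga1 stands highest, at 123 CPM with PCI34051+NEC, P4ha2 is highest in NEC at 15.0 CPM, L3hypdh is lowest in NEC at 4.57 CPM, and Prodh has no count.

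Pycr1, a mitochondrial reductase that makes proline from pyrroline-5-carboxylate (chromosome 11, 120635712 to 120643769, minus strand), was close to the limit of detection. It had 12 counts in the PCI34051+NEC library, 5 in the NEC library and 27 in the control library, or 0.788, 0.457 and 1.70 CPM. The plain ratio of NEC to control was 0.269 (0.0808 to 0.708) and that of PCI34051+NEC to control 0.464 (0.214 to 0.947). Control was thus highest beyond counting error, narrowly so against PCI34051+NEC, but neither ratio was called at a 2-fold difference of CPM + 1. Only control reached 1 CPM, so Pycr1 was measured, and entered the medians, only in the comparisons that include control. PCI34051+NEC and NEC were not distinguishable, with a ratio of 1.73 (0.566 to 6.26).

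Pycrl, a cytosolic reductase of the same step now named Pycr3, was far more abundant than Pycr1. It was at 43.6 CPM with PCI34051+NEC, 30.9 CPM in NEC and 67.5 CPM in control. NEC was 2.19-fold below control (1.93 to 2.48), which was called, and PCI34051+NEC was 1.41 times NEC (1.24 to 1.62), which was not. Per length, the level of Pycrl was 32.6, 23.1 and 50.4 CPM per kb and that of Pycr1 0.200, 0.116 and 0.432 CPM per kb in PCI34051+NEC, NEC and control. Both genes were thus highest in control and lowest in NEC, although Pycr1 in PCI34051+NEC and NEC overlapped.

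Genes that supply proline from glutamate, ornithine and peptides were mostly lower in NEC. Against control, 8 of the 14 genes, all measured, passed 2-fold downward and 0 upward, with a median log2 fold of -1.14. With PCI34051+NEC, 10 were higher and 1 lower than in NEC, with a median of 1.57. Against control, 2 were higher and 0 lower with PCI34051+NEC, with a median of -0.08. Pepd, prolidase, which frees proline from dipeptides, was at 190.3 CPM with PCI34051+NEC, 34.9 CPM in NEC and 224 CPM in control. Prcp, a lysosomal carboxypeptidase that cleaves after proline, was at 59.8, 8.68 and 90.8 CPM. Summed epithelial markers stood at 16801, 7763 and 13050 CPM in the same order, and their part in these differences was not tested.

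Proline and peptide transporters showed no common direction in NEC. Of 14 listed, 11 were measured in NEC against control, 5 of them higher and 4 lower with a median of 0.88. With PCI34051+NEC, 4 of 11 were higher and 3 lower than in NEC, with a median of -0.11, and against control 4 were higher and 0 lower, with a median of 0.78. Slc15a1, the intestinal uptake transporter for di- and tripeptides, was at 148, 17.0 and 47.3 CPM in PCI34051+NEC, NEC and control, and Slc6a19, the main neutral amino acid transporter of enterocytes, at 1479.9, 269.9 and 644 CPM. Slc6a7, a proline transporter known from neurons, was highest in NEC, at 15.0, 49.2 and 10.3 CPM, and so was Slc38a4, at 4.93, 16.7 and 2.20 CPM.

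Prodh, proline dehydrogenase, which opens proline oxidation (chromosome 16, 18060357 to 18090203, minus strand), was listed at 0 counts in all 3 libraries. A count of 0 allows up to 3 counts, or 0.197 CPM with PCI34051+NEC, 0.274 CPM in NEC and 0.189 CPM in control. Dgcr6, whose span overlaps that of Prodh on the opposite strand (chromosome 16, 18052860 to 18071632), was also listed at 0 in all 3. The annotated exons of both genes share no base, and no transcript of another gene matched Prodh over 100 bases at 95% identity or more. Of all genes in the table, 20.2% were at 0 in every library. Whether the zero comes from the counting or the tissue was not tested. The ratio of Prodh to Pycr1 counts was 0 in each library, with upper limits of 0.360 with PCI34051+NEC, 1.09 in NEC and 0.146 in control.

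Aldh4a1, the mitochondrial dehydrogenase that finishes proline oxidation and also acts in hydroxyproline breakdown, before Got2 and Hoga1 (chromosome 4, 139622866 to 139649690, plus strand), was low throughout. It had 23 counts (1.51 CPM) with PCI34051+NEC, 48 (4.38 CPM) in NEC and 48 (3.02 CPM) in control. PCI34051+NEC was the lowest library: it was 2.90-fold below NEC (1.73 to 5.00), which was called, and 2.0-fold below control (1.19 to 3.44), which was not. NEC and control overlapped, with a ratio of 1.45 (0.952 to 2.21). Of its 4907 exon bases, 1595 are shared with Gm21969 on the same strand, which was listed at 0 in all 3 libraries, and how counts of the shared bases were assigned is not stated.

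**Figure D2:**
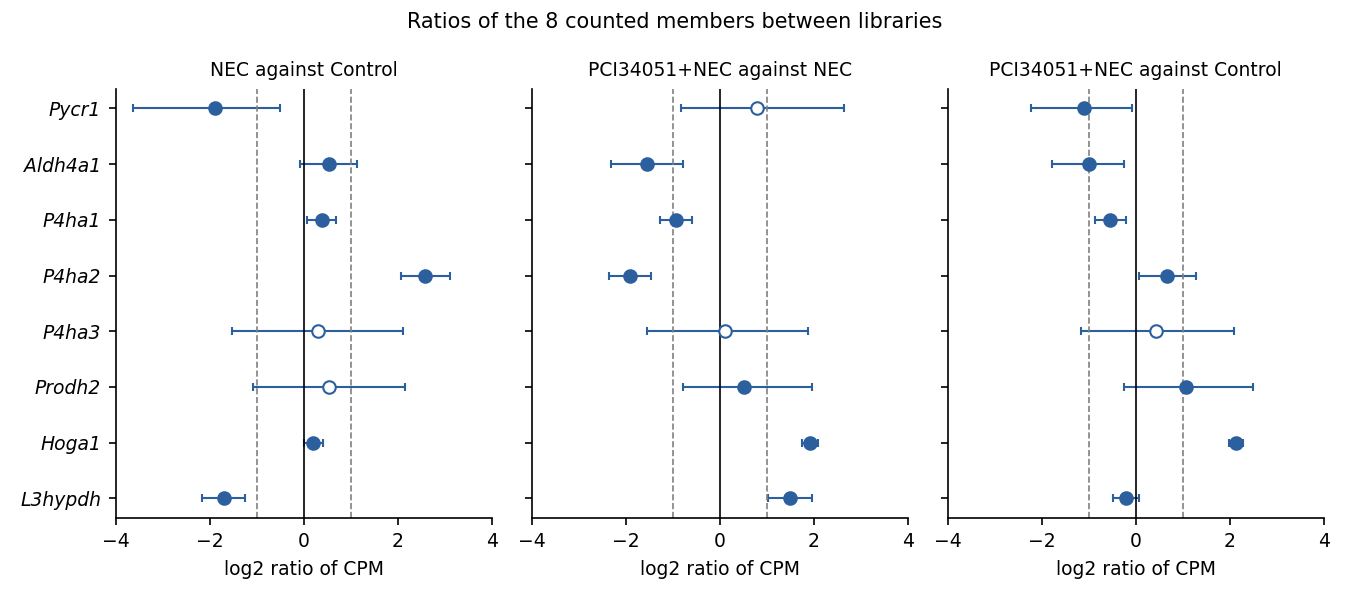
Log2 ratio of CPM for the 8 members with counts in each comparison, with 95% counting intervals as bars, open points for members under 1 CPM in both libraries, and dashed lines at 2-fold. Intervals lie wholly beyond a dashed line for P4ha2 and L3hypdh in NEC against control, for P4ha2, Hoga1 and L3hypdh in PCI34051+NEC against NEC, and for Hoga1 in PCI34051+NEC against control, while Prodh2 and P4ha3 span 0 in every panel.

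The catalytic alpha subunits of collagen prolyl 4-hydroxylase differed in make-up between the libraries. The enzyme places hydroxyl groups on proline in new collagen chains in the endoplasmic reticulum, and each alpha subunit works in complex with protein disulfide isomerase, the product of P4hb. P4ha2 (chromosome 11, 54100095 to 54131665, plus strand) had 61 counts with PCI34051+NEC, 164 in NEC and 40 in control, or 4.01, 15.0 and 2.52 CPM. It was 5.95-fold higher in NEC than in control (4.19 to 8.63), a log2 fold of 2.18, and 94.1% of measured genes had a lower one. PCI34051+NEC was 3.74-fold below NEC (2.77 to 5.10) and 1.59 times control (1.05 to 2.44).

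P4ha1, the most widely expressed alpha subunit (chromosome 10, 59323296 to 59373304, plus strand), varied less. It had 129 counts (8.47 CPM) with PCI34051+NEC, 176 (16.1 CPM) in NEC and 196 (12.3 CPM) in control. The ratio of NEC to control was 1.30 (1.06 to 1.61), that of PCI34051+NEC to NEC 0.527 (0.417 to 0.665) and that of PCI34051+NEC to control 0.687 (0.546 to 0.863), all under the 2-fold call. P4ha3 (chromosome 7, 100285520 to 100319699, plus strand) had 9, 6 and 7 counts in PCI34051+NEC, NEC and control and did not reach 1 CPM.

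Within a library, P4ha2 held 30.7% (24.3 to 37.6) of alpha subunit counts with PCI34051+NEC, 47.4% (42.0 to 52.8) in NEC and 16.5% (12.0 to 21.7) in control, and these intervals do not overlap. P4ha1 held the remainder but for 4.52%, 1.73% and 2.88% of P4ha3, with 64.8%, 50.9% and 80.7%. Since these shares do not rest on the scaling, the PCI34051+NEC library lay between the other two whatever the normalisation. Per kb of exon, the share of P4ha2 was 22.2%, 37.0% and 11.4%, in the same order of libraries. Length there joins all annotated exons, 6239 bases for P4ha2 (longest transcript 3060) and 4114 for P4ha1 (longest transcript 4043). The size of the share per kb therefore depends on the length taken.

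Summed alpha subunit counts did not keep pace with collagen in NEC, where P4ha1 fell behind and P4ha2 did not. There were 22.8 counts of P4ha1, P4ha2 and P4ha3 per 1000 counts of Col1a1, Col1a2 and Col3a1 with PCI34051+NEC (19.7 to 26.3), 13.1 in NEC (11.7 to 14.5) and 24.8 in control (21.7 to 28.1). Split by gene after the values were seen, P4ha1 stood at 14.8, 6.65 and 20.0 per 1000 collagen counts. P4ha2 stood at 7.0 (5.35 to 9.0) with PCI34051+NEC, 6.20 (5.29 to 7.23) in NEC and 4.07 (2.91 to 5.55) in control. The ratio of P4ha1 was lowest in NEC beyond counting error. That of P4ha2 in NEC overlapped both other libraries, which does not show that the ratios are equal. In NEC against control, P4ha2 was 5.95-fold higher, Col1a1 4.68-fold, Col1a2 3.22-fold and Col3a1 3.93-fold. Among 10 collagen genes, NEC was at least 2-fold above control for 8 and 2-fold below it for 0, with a median of 2.09, and 8 were lower with PCI34051+NEC than in NEC, with a median of -1.98. Between PCI34051+NEC and control, 0 of the 10 were called. Smooth muscle markers, 10 genes summed, stood at 1545, 12119 and 1615 CPM in PCI34051+NEC, NEC and control. The fibroblast sum given above includes Col1a1, Col1a2 and Col3a1, so it is not separate from the collagen counts. In NEC these genes were at 666, 537 and 1212 CPM, where the whole sum was 3090 CPM. Enteric neuron and glia markers summed to 252, 837 and 312 CPM and endothelial markers to 149, 262 and 151 CPM, both highest in NEC, while leukocyte markers summed to 40.3, 42.7 and 119 CPM. The part of these cells in the P4ha2 difference was not tested.

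**Figure D3:**
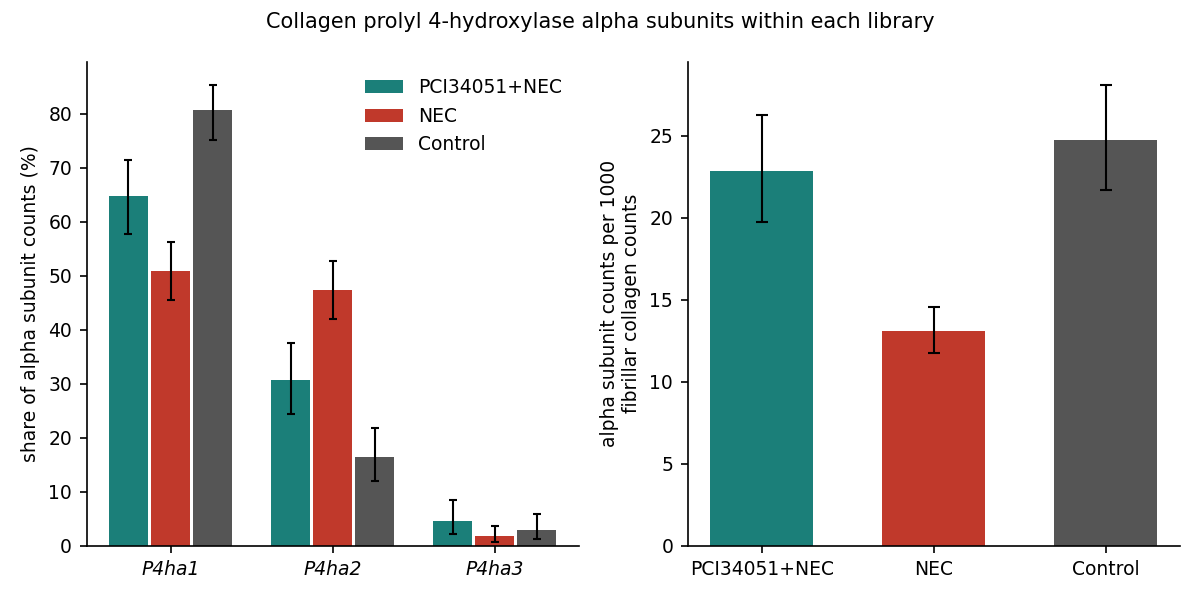
Left, share of each gene in the summed counts of P4ha1, P4ha2 and P4ha3 (percent). Right, alpha subunit counts per 1000 counts of Col1a1, Col1a2 and Col3a1. Bars are single libraries, in the order PCI34051+NEC, NEC and control, with 95% exact binomial counting intervals. P4ha2 takes 30.7%, 47.4% and 16.5%, and the ratio to collagen is lowest in NEC at 13.1.

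Partners of the alpha subunits went both ways. P4hb, which also serves as a general disulfide isomerase and as a subunit of the triglyceride transfer protein, had 80959, 10267 and 36279 counts in PCI34051+NEC, NEC and control, or 5318, 938 and 2283 CPM. Thus 407, 29.7 and 149 counts of P4hb stood against each alpha subunit count. Among 12 genes of collagen hydroxylation and folding, NEC passed 2-fold above control for 6 and below it for 4, with a median of 0.90. With PCI34051+NEC, 4 were higher and 6 lower than in NEC, with a median of -1.01, and 1 was higher and 2 lower than in control, with a median of -0.26. P3h3, of the prolyl 3-hydroxylase family, was at 7.49, 106 and 14.4 CPM, P3h2, a prolyl 3-hydroxylase, at 2.82, 23.4 and 2.39 CPM, and the lysyl hydroxylase Plod2 at 5.19, 46.2 and 8.49 CPM. Colgalt1, a collagen galactosyltransferase, was lowest in NEC, at 137, 18.6 and 161 CPM.

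Prolyl hydroxylases that act outside collagen were mixed, and so were genes known to be induced by hypoxia. Of 5 such hydroxylases, 1 was at least 2-fold higher and 2 lower in NEC than in control, with a median of -0.87, and 1 was higher and 1 lower with PCI34051+NEC than in NEC, with a median of 0.95. None was called between PCI34051+NEC and control, where the median was -0.01. P4htm, a transmembrane prolyl 4-hydroxylase, was at 1.84, 14.3 and 2.14 CPM in PCI34051+NEC, NEC and control, while Egln3, a hydroxylase of the hypoxia-inducible factor, was at 71.9, 16.4 and 57.7 CPM. Of 11 hypoxia-induced genes, 2 were higher and 5 lower in NEC than in control, with a median of -0.80. With PCI34051+NEC, 6 were higher and 1 lower than in NEC, with a median of 1.16, and 3 were higher and 1 lower than in control, with a median of 0.41. Ndrg1 was at 1548, 408 and 181 CPM and Bnip3 at 113, 27.7 and 62.8 CPM. The part of hypoxia in the P4ha2 difference was not tested.

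Hoga1, the mitochondrial aldolase that splits the last intermediate of hydroxyproline breakdown into glyoxylate and pyruvate (chromosome 19, 42045610 to 42070953, plus strand), was the most abundant member in every library. It had 1873 counts with PCI34051+NEC, 355 in NEC and 447 in control, or 123, 32.4 and 28.1 CPM. The PCI34051+NEC library stood alone. It was 3.80-fold above NEC (3.39 to 4.26) and 4.37-fold above control (3.94 to 4.86). The log2 fold against control, 2.09, exceeded those of 99.1% of measured genes. NEC and control could hardly be told apart, with a ratio of 1.15 (1.00 to 1.33). Hoga1 made up 80.8% of all counts of the 9 members with PCI34051+NEC, 43.7% in NEC and 44.3% in control.

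Liver and kidney are known for strong hydroxyproline breakdown, so markers of both were read beside Hoga1. Hepatocyte markers went both ways. Of 12, PCI34051+NEC was higher than NEC for 3 (Afp, Ttr and Fga) and lower for 7, with a median log2 fold of -1.98. Against control, 9 were measured, 1 (Serpina1a) higher and 4 lower, with a median of -0.75. Their part in the Hoga1 difference was not tested. Alb was at 0.394, 100.4 and 9.31 CPM in PCI34051+NEC, NEC and control, Ahsg at 0.131, 12.0 and 0.944 CPM, and the 12 markers summed to 594, 274 and 1214 CPM. Afp was at 321, 27.6 and 786 CPM and Fgg at 0.263, 11.7 and 1.76 CPM. Of 8 kidney tubule markers, 5, 3 and 4 were at 0 counts, and the 8 summed to 14.0, 9.41 and 45 CPM in PCI34051+NEC, NEC and control. Lrp2, also made by other epithelia, was at 13.8, 4.11 and 43.9 CPM. Per 1000 counts of the 12 epithelial markers, a ratio chosen after the values were seen, Hoga1 stood at 7.32 (6.99 to 7.66), 4.18 (3.75 to 4.64) and 2.16 (1.96 to 2.36). PCI34051+NEC was thus highest against the summed markers. The markers did not move together: 3 of the 12 were higher and 0 lower with PCI34051+NEC than in control. Fabp2 was at 2571, 616 and 314 CPM and Epcam at 2797, 404 and 2731 CPM, so the order of the libraries can depend on the marker taken.

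Prodh2, hydroxyproline dehydrogenase, which takes the first step of the pathway that Hoga1 ends (chromosome 7, 30493622 to 30513402, plus strand), was near the limit of detection. It had 16, 8 and 8 counts in PCI34051+NEC, NEC and control, or 1.05, 0.731 and 0.503 CPM. No pair of libraries differed beyond counting error, and the ratio of PCI34051+NEC to control was 2.09 (0.843 to 5.64). There were 117 counts of Hoga1 per count of Prodh2 with PCI34051+NEC (71.9 to 205), 44.4 in NEC (22.3 to 104) and 55.9 in control (28.1 to 130). These intervals overlap, which does not show that the ratios are equal, and they rest on the few counts of Prodh2. Per length, Hoga1 was at 54.5, 14.4 and 12.5 CPM per kb and Prodh2 at 0.427, 0.297 and 0.205 CPM per kb.

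Genes that deal with the glyoxylate formed by Hoga1 were mostly below 2-fold between PCI34051+NEC and control, and more often higher than lower in PCI34051+NEC against NEC. Grhpr, which reduces glyoxylate, was at 76.9 CPM with PCI34051+NEC, 24.3 CPM in NEC and 73.1 CPM in control, where PCI34051+NEC and control differed by less than counting error, with a ratio of 1.05 (0.968 to 1.14). Agxt, which converts glyoxylate to glycine, had 10, 27 and 6 counts. Got2, the mitochondrial aspartate aminotransferase that acts just before Hoga1, was at 103, 41.6 and 82.1 CPM. Of 10 genes of this group, 3 were higher and 4 lower in NEC than in control, with a median of -0.84, and 5 were higher and 1 lower with PCI34051+NEC than in NEC, with a median of 0.97. Of 7 measured between PCI34051+NEC and control, 0 were higher and 1 lower, with a median of -0.10. That 1 was Hao2, a peroxisomal hydroxy acid oxidase, at 21.5, 2.37 and 62.0 CPM.

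L3hypdh, which dehydrates trans-3-hydroxyproline, a minor hydroxyproline of collagen (chromosome 12, 72073428 to 72085439, minus strand), was lowest in NEC. It had 195 counts with PCI34051+NEC, 50 in NEC and 236 in control, or 12.8, 4.57 and 14.8 CPM. NEC was 3.25-fold below control (2.39 to 4.51), and PCI34051+NEC was 2.81-fold above NEC (2.05 to 3.91). PCI34051+NEC and control overlapped, with a ratio of 0.863 (0.710 to 1.05). Per 1000 counts of the summed epithelial markers the values were 0.762 (0.659 to 0.877), 0.588 (0.437 to 0.776) and 1.14 (0.997 to 1.29). On that scale PCI34051+NEC and NEC overlapped and control was highest. The order can depend on the marker taken, as 6 of the 12 were lower and 1 higher in NEC than in control. Epcam was at 404 CPM in NEC and 2731 CPM in control, and Krt19 at 638 and 54.2 CPM. The part of epithelial content in the L3hypdh differences was not tested.

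The gene on the other side of the L3hypdh promoter showed the same order. Jkamp, which encodes a membrane protein of the endoplasmic reticulum, starts on the plus strand, with 149 bases between the ends of both genes in GENCODE and 526 between their RefSeq starts. It had 319, 66 and 353 counts in PCI34051+NEC, NEC and control, or 21, 6.03 and 22.2 CPM. The count of L3hypdh per count of Jkamp was 0.611 (0.509 to 0.733), 0.758 (0.514 to 1.11) and 0.669 (0.565 to 0.791), with overlapping intervals, while both levels were over 3-fold lower in NEC than in control. Jkamp was picked for its position and was read after the values of L3hypdh were known. Of all measured genes, 22.9% were called lower in NEC against control and 25.0% higher in PCI34051+NEC against NEC, so the same directions are common. The part of the shared promoter was not tested.

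Targets of ATF4, whose motif stands before Pycr1, showed no common direction. Of 11 genes, 2 were higher and 3 lower in NEC than in control, with a median of -0.07. With PCI34051+NEC, 3 were higher and 1 lower than in NEC, with a median of 0.58. Of 10 measured between PCI34051+NEC and control, 1 was higher and 1 lower, with a median of 0.15. Asns, asparagine synthetase, was at 23.9, 7.58 and 16.9 CPM in PCI34051+NEC, NEC and control, and Sesn2 at 47.0, 11.6 and 116 CPM. Hdac8 itself was at 7.69, 12.0 and 6.48 CPM, with 117, 131 and 103 counts.

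**Figure D4:**
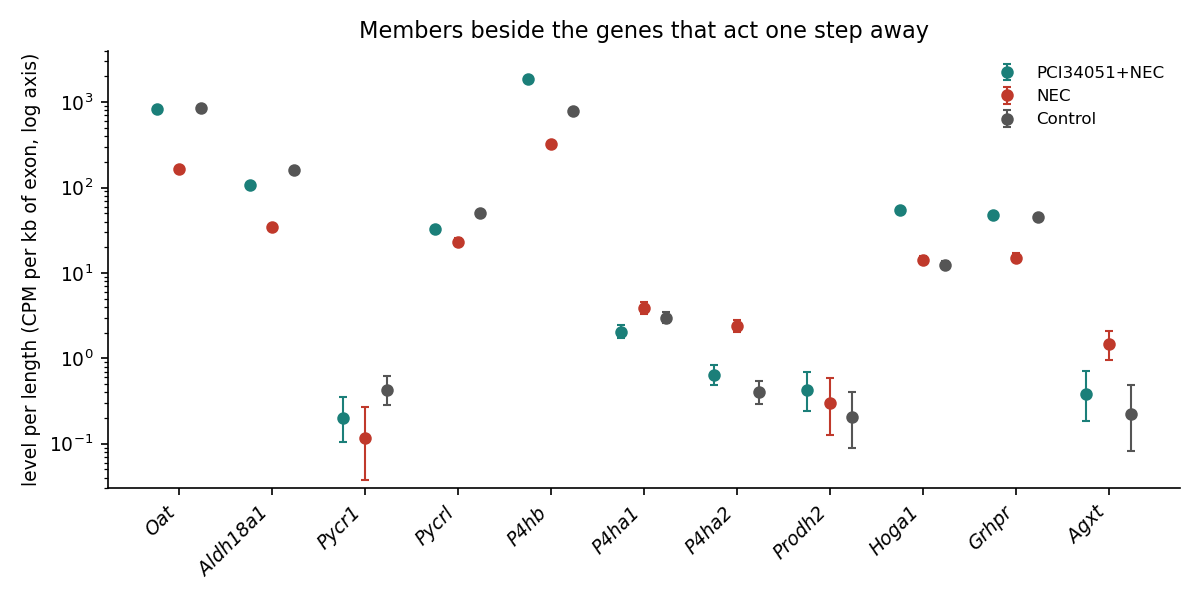
Level per length (CPM per kb of exon, log axis) of 5 members (Pycr1, P4ha1, P4ha2, Prodh2 and Hoga1) beside 6 genes that act one step from a member, in PCI34051+NEC, NEC and control, with 95% Poisson counting intervals. P4hb and Oat lie far above the members, Pycrl far above Pycr1, and the PCI34051+NEC point is highest for Hoga1 at 54.5 CPM per kb.

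Ordered by level per length in the PCI34051+NEC library, the members ran from Hoga1 (54.5 CPM per kb) over L3hypdh (4.78), P4ha1 (2.06) and P4ha2 (0.642) to Prodh2 (0.427), Aldh4a1 (0.308), Pycr1 (0.200) and P4ha3 (0.189). The counting intervals of neighbours overlapped from P4ha2 to P4ha3. In NEC the order was Hoga1 (14.4), P4ha1 (3.91), P4ha2 (2.40), L3hypdh (1.70), Aldh4a1 (0.893), Prodh2 (0.297), P4ha3 (0.175) and Pycr1 (0.116). There P4ha2 and L3hypdh overlapped, and so did Prodh2, P4ha3 and Pycr1. In control the order was Hoga1 (12.5), L3hypdh (5.54), P4ha1 (3.0), Aldh4a1 (0.615), Pycr1 (0.432), P4ha2 (0.403), Prodh2 (0.205) and P4ha3 (0.140), with overlap between neighbours from Aldh4a1 on. Hoga1 stood first in all 3 libraries, and the order of the others differed. These levels divide by the length of all annotated exons joined, which for P4ha2 is 6239 bases, while its longest transcript has 3060. The place of P4ha2, such as below P4ha1 in NEC, can therefore change with the length taken.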

How the data were processed

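The deposited table holds raw counts per gene symbol, made with HTSeq going by its name, for 1 library per group. RNA was isolated with TRIzol and read as 150 bp paired ends, per the labels' protocols. Reads were placed on mm10, per the submitters' processing notes, with aligner, annotation, strand setting and filters not given in the sources used here. Genes with overlapping exons may therefore share or lose counts. Of 21983 genes, 21926 matched GENCODE release M21 by symbol, all 9 members among them.

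Scaling was by TMM over all 3 libraries (edgeR 4.0.16, R 4.3.3), and log2 folds used CPM plus 1. Ratios and shares have exact binomial (Clopper-Pearson) 95% intervals, levels above 0 exact Poisson ones. Without molecular identifiers PCR reads are no independent molecules: intervals and the floor of 3 counts cover counting error only. The calculation was run on simulated Poisson counts with sets of 50 genes changed by a known fold, and 90% to 96% of intervals covered that fold. Far fewer genes differed there than in these data, and no low gene was changed. The simulation therefore does not check the scaling or the low members here.

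The members, gene lists and comparisons were chosen with earlier results of these data known. By rule the text may name all members, genes 1 step from a member, Hdac8, and up to 4 genes per list with the largest fold at 5 CPM or more. Named outside it, after values were seen, were Jkamp, Dgcr6 and Gm21969 for their position and Vil1, Ttr, Fga and Serpina1a as examples. A gene that the rule also takes in is not reported here. Refits replaced TMM by size factors from DESeq2 1.42.0, by total counts or by TMM on other genes or libraries, or used thinned libraries, other pseudocounts, filters and thresholds, removal of the GC content and exon length trend, and counts per kb of exon. Scripts ran in Python 3.11.15.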

Additional observations from a re-analysis of the deposited data

How the results depend on the processing

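No paired analysis was possible because each group has 1 library, and no library could be left out. Of 222 refitted member folds, 219 stayed within counting error and none of the called ones changed sign. For members with few counts that error is wide, such as 0.566 to 6.26 for the ratio of Pycr1 in PCI34051+NEC against NEC, so staying within it says little. P4ha3, which was not measured, changed sign in 1 refit of NEC against control and in 1 of PCI34051+NEC against NEC. L3hypdh in NEC against control, P4ha2 in NEC against control and in PCI34051+NEC against NEC, and Hoga1 in both PCI34051+NEC comparisons kept their call under every refit. In PCI34051+NEC against NEC, L3hypdh kept its call in 9 of 10 refits (lowest 0.97) and Aldh4a1 in 7 of 9 (-1.40 to -0.61). P4ha1, under 2-fold there, stayed so in 9 of 10. With the GC content and exon length trend removed it was called lower at -1.12, while Aldh4a1 lost its call at -0.80. Folds of low members rest on few counts, which depth limits. Scaling by total counts moved the median of all genes to -0.14 in PCI34051+NEC against NEC and to -0.18 in PCI34051+NEC against control.

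Of members called lower in NEC against control, 1 became 2 under TMM without the 50 most abundant and mitochondrial genes, under a pseudocount of 0.25 and at 1.5-fold, with Pycr1 the second. In PCI34051+NEC against NEC, members called higher became 1 with a pseudocount of 4, and those called lower became 1 with a pseudocount of 4, with a minimum of 5 CPM and with counting intervals wholly beyond 2-fold. The median of -0.30 there became 0.30 under that TMM set, 0.14 with no filter, 0.23 at 5 CPM, -0.02 once trends with GC and length were taken out, -0.81 after thinning and -0.99 by total counts, so it has no stable sign or size. The median of 0.28 in NEC against control lay between 0.14, without those trends, and 0.31, after thinning. In PCI34051+NEC against control, members called lower became 2 at 1.5-fold, and the median became -0.52 by total counts. Per kb of exon, alpha subunits per 1000 collagen counts became 47.4, 24.2 and 53.2 in PCI34051+NEC, NEC and control, the share of P4ha2 22.2%, 37.0% and 11.4%, and that of P4ha1 in NEC 60.3%, by construction. The cause of the other changes was not tested.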
